A study of Mus musculus with 79 samples.

Results

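Genes of transforming growth factor beta (TGFβ) and activin signaling were followed through the regenerating mouse nerve. The set holds the ligands Tgfb1, Tgfb2, Tgfb3 and Inhba, the receptors Tgfbr1, Tgfbr2 and Acvr1, and the inhibitors Smad7, Ski and Pmepa1. They are 10 of the 23361 genes in the count tables, were found by symbol, and all 10 were present in each of the 3 tables. Pmepa1 and Acvr1 were chosen for being lower after delayed repair in the day 5 Schwann cell libraries. Their values in those libraries are therefore given as a description, with no test, and the same holds for any comparison that uses those libraries.

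The animals were male and female S100β-eGFP mice, in which a human S100β promoter drives green fluorescent protein (GFP) in Schwann cells (SC) and in any other cell that uses that promoter. In delayed repair the tibial nerve had lain cut and without axons for 8 weeks when its stump received the common peroneal nerve. In immediate repair there was no such wait. Mice of the immediate group had a sham incision 8 weeks before the suture, so both groups had been operated on beforehand. The age of the mice is not given by the labels. Macrophages (MAC; F4/80, CD14, CD16/32 and CD11b positive) and SC (GFP positive, negative for those proteins and for lineage markers of other cells) were sorted from the bridge that forms between the nerve ends, 5 or 14 days after repair. Before either gate, cells stained for markers of granulocytes, B cells, T cells, fibroblasts, endothelial cells or red cells were removed. The distal tibial stump was taken whole at day 5. The tissue label of the stump libraries names the bridge, while their titles and cell type name the stump, which was followed here. Each bridge came from 1 animal, and 31 of the 32 mice gave both sorted fractions. At day 5 there were 9 delayed and 8 immediate MAC libraries, 9 and 7 SC libraries, and 9 and 7 stump libraries. At day 14 there were 7 delayed and 8 immediate libraries of each sorted fraction.

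TGFβ ligands are secreted in a latent form, are released by integrins, thrombospondin and proteases, and bind Tgfbr2, which recruits and activates Tgfbr1. The activated complex phosphorylates receptor Smads, which enter the nucleus and switch genes on or off. Activin A, a dimer of the Inhba product, signals through its own receptors to the same Smads. In injured nerve this family is known for acting on SC, on macrophages and on the fibroblasts that build the bridge and its scar.

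Bases just upstream of the transcription start are shown for the ligands whose levels differed most in where they were found: Tgfb1, present everywhere, Tgfb2, near 0 in MAC, and Inhba, highest in MAC. Each window holds 100 bases, 5′ to 3′ on the gene's strand, from RefSeq on GRCm38.p6, with TATAAA in capitals.
Tgfb1, chr7:25686902-25687001, plus strand: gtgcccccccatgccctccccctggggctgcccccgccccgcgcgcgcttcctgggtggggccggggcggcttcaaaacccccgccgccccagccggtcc
Tgfb2, chr1:186705990-186706089, minus strand: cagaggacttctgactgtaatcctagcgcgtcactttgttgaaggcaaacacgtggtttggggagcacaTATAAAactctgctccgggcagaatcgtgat
Inhba, chr13:16011751-16011850, plus strand: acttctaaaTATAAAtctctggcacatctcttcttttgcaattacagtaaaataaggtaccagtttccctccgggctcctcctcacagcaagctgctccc
The letters TATAAA, searched on both strands of 250 upstream bases, occurred once in Tgfb2, 31 bases before the start, once in Inhba, 91 bases before it, and not in Tgfb1. Of 32851 RefSeq promoters, 12.4% held these letters in the same window. The Tgfb1 window was 82.0% G and C, against 49.0% in Tgfb2 and 44.0% in Inhba. RefSeq entries were matched for 7 of the 10 genes, and Tgfb3, Smad7 and Pmepa1 were not matched. The matches describe the sequence only.

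Library totals ran from 14928745 to 28499407 estimated counts in MAC, 11614940 to 30796823 in SC and 3898778 to 9212709 in the stump. Levels below are CPM (a gene's count relative to its library's total, in the usual unit) after trimmed mean of M values (TMM) scaling within each table, so a level in MAC and one in the stump come from separately scaled libraries and different library kits. All 9 MAC markers had a median of at least 5 CPM in every MAC group, and Sox10, which defines SC, was at 0 in all 9 delayed MAC libraries of day 5 and reached at most 1.67 CPM in any MAC library. The sorted SC libraries went against their label in part. Dendritic cell markers (8 genes, among them Ccr7, Flt3 and Cd74) summed to 24134 to 49668 CPM at day 5 and 17878 to 43570 CPM at day 14, while 9 SC markers summed to only 164 to 1378 CPM at day 5 and 492.8 to 3045 CPM at day 14. Sox10 was at 0 in a delayed library of day 5 and had a median of 10.8 CPM in that group, against 68.1 CPM after immediate repair. These libraries are therefore called the SC fraction. How far the cells with dendritic markers account for any value below was not tested.

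**Figure D1:**
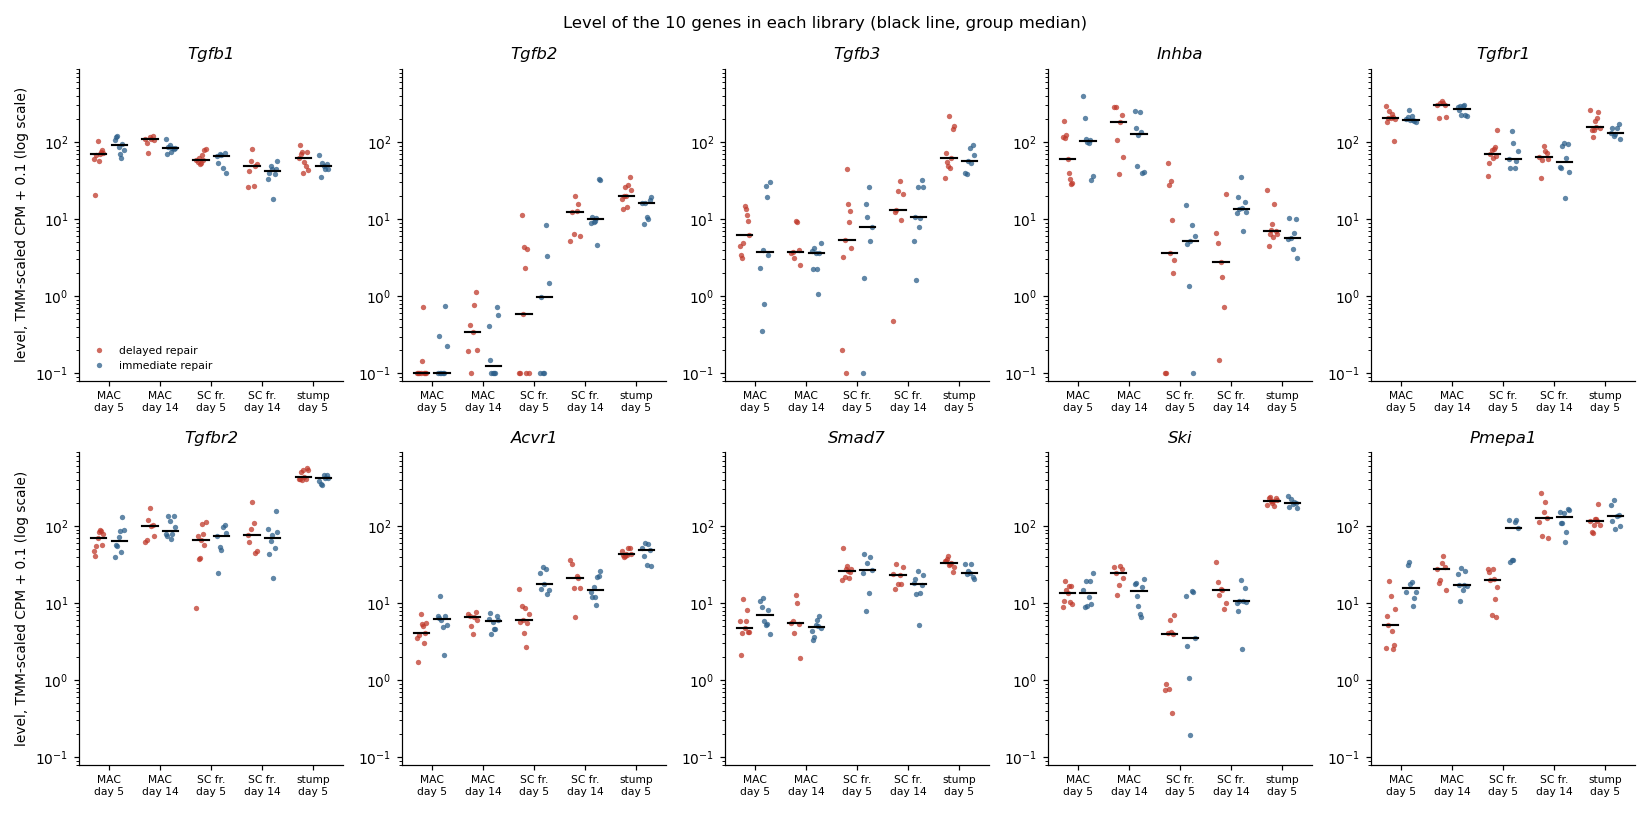
Level of each of the 10 genes in every library, as TMM-scaled CPM plus 0.1 on a log axis, by fraction and day, with delayed repair in red, immediate repair in blue and the group median as a black line. Tgfb2 sits near the floor in MAC, Inhba is highest in MAC, and the Pmepa1 points of the delayed and immediate SC fraction do not overlap at day 5.

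Ranked per kilobase of exon, Tgfbr1 led in MAC, with 31.9 ± 6.24 CPM per kb at day 5 (SD, n = 17) and 41.9 ± 6.99 at day 14 (SD, n = 15). Inhba (16.6 ± 14.2 at day 5) and Tgfb1 (15.6 ± 4.86) followed within their spread, then Tgfbr2 (8.44 ± 2.83). The lowest was Tgfb2, at 0.017 ± 0.036 CPM per kb. In the SC fraction at day 5, over both repairs, Tgfb1 (12.2 ± 2.33, n = 16), Tgfbr1 (11.5 ± 4.71), Pmepa1 (9.07 ± 8.37) and Tgfbr2 (8.06 ± 3.70) could not be ordered beyond their spread. As a description by repair group, Pmepa1 held 3.66 ± 1.69 after delay (n = 9) and 16.0 ± 8.42 after immediate repair (n = 7). Tgfb1 held 12.6 ± 2.19 and 11.8 ± 2.60 in the same groups. At day 14 Pmepa1 stood first in that fraction with 27.1 ± 11.2 CPM per kb (n = 15), followed by Tgfbr2 with 9.93 ± 5.71. In the stump Tgfbr2 was highest, with 53.5 ± 8.13 CPM per kb (n = 16), Ski came next with 37.3 ± 4.05, and Inhba was lowest with 1.27 ± 0.81.

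The first comparison set the SC fraction against the MAC of the same mice, with the mouse as a block. Among genes as a whole, 64.5% of 10074 differed at day 5 (32.7% higher and 31.9% lower in the SC fraction) and 63.3% of 10596 at day 14 (34.0% higher and 29.3% lower). A gene entered a test when it reached 5 CPM in 6 or more of the libraries compared. Some genes met this in only 1 of the compared groups, so the filter itself favoured a difference. Their differences are given as a description, and they are left out of the counts. Among genes that met the filter in each fraction, 27.3% of 8066 were higher and 36.4% lower in the SC fraction at day 5, and 26.1% of 8343 were higher and 34.2% lower at day 14. Of the 6 such genes open to test at day 5, 1 was higher and 4 were lower. At day 14, 3 of 8 were higher and 5 lower. Since most genes differed between the fractions, the sizes below say more than the calls. The log2 differences come from fits that scaled both fractions together. Ranges, medians and counts of mice use levels scaled within each fraction.

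The ligands divided by fraction. Tgfb1, the ligand made by most immune cells (chr7:25687002-25705077), ran from 20.8 to 119 CPM in MAC at day 5 with a median of 73.5, and from 39.7 to 82.5 CPM in the SC fraction with a median of 60.2. It was lower in the SC fraction by a log2 fold change of -0.60 (SE 0.15, adjusted p = 0.0016), in 13 of 16 mice. At day 14 the difference was -1.49 (SE 0.14, adjusted p = 3.6e-08), in 15 of 15 mice. Scaling by library size alone gave -0.35 at day 5, with an adjusted p of 0.054.

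Tgfb2, the isoform best known from development and from mesenchymal cells (chr1:186622792-186705989), was at 0 in 12 of 17 MAC libraries at day 5 and never above 0.64 CPM there. A count of 0 allows up to 0.201 CPM in the shallowest of those libraries. The SC fraction had it at 0 in 7 of 16 libraries at day 5, with a median of 0.68 and a highest value of 11.4 CPM. At day 14 every SC fraction library held it, at 4.50 to 33.2 CPM with a median of 10.2, while MAC reached at most 1.03 CPM. The fractions did not overlap at day 14. Tgfb2 met the filter there in 14 SC fraction libraries and 0 MAC libraries, so no test is given, and at day 5 too few libraries met it.

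Tgfb3, another isoform of the ligand, made largely by stromal cells (chr12:86056745-86079041), ran from 0.25 to 30.1 CPM in MAC and from 0 to 44.6 CPM in the SC fraction at day 5, and was higher in the SC fraction in 8 of 16 mice, with no call (log2 difference -0.39, SE 0.73, adjusted p = 0.66). The day 5 difference ran from -0.42 to -0.059 over the alternative fits and from -0.64 to -0.15 with a mouse left out. At day 14 the Tgfb3 median was 3.59 CPM in MAC and 12.3 CPM in the SC fraction. There the SC fraction held more of it in 13 of 15 mice. Only 3 MAC libraries met the filter, against 13 of the SC fraction, so the log2 difference of 1.396 is a description.

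Inhba, which encodes the activin A subunit (chr13:16011851-16031621), was the most tied to MAC among the ligands of this set. Its level ran from 28.2 to 391 CPM in MAC at day 5 with a median of 101, and from 0 to 54.1 CPM in the SC fraction with a median of 4.90. MAC were higher in 16 of 16 mice at day 5 (log2 difference -4.40, SE 0.77, adjusted p = 6.2e-05; -2.68 with limma-voom) and in 15 of 15 at day 14 (-4.33, SE 0.65, adjusted p = 1.3e-05).

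**Figure D2:**
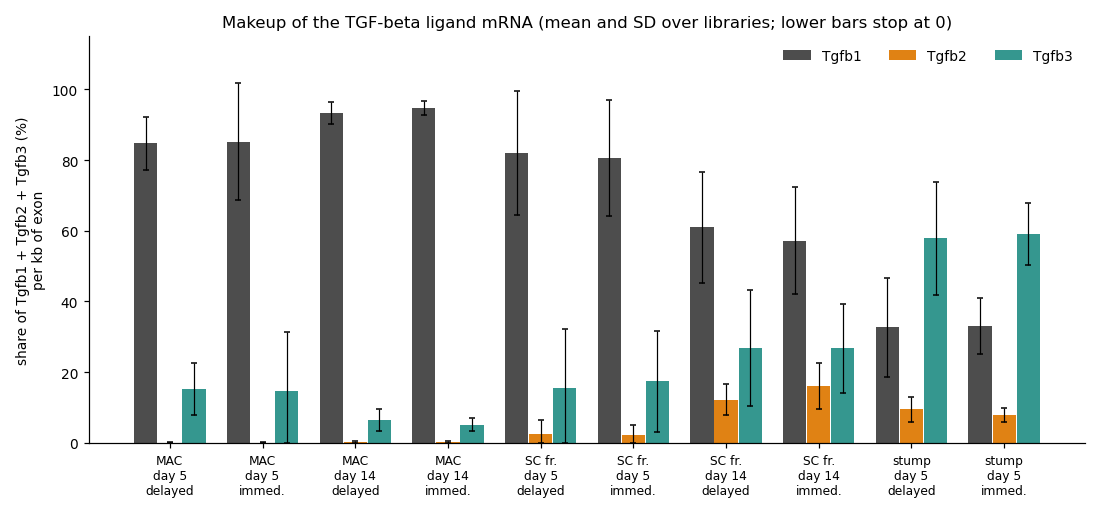
Share of Tgfb1, Tgfb2 and Tgfb3 in their summed level per kilobase of exon, in percent, as the mean and SD over the libraries of each group. Tgfb1 made up 80.5% to 94.7% in MAC and in the day 5 SC fraction, and Tgfb3 made up 57.9% and 59.0% in the delayed and immediate stump.

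Per kilobase, the TGFβ ligand mRNA of MAC was mostly Tgfb1, at 84.7% ± 7.56 after delayed and 85.1% ± 16.6 after immediate repair at day 5 (SD, n = 9 and 8). In the SC fraction at day 14 Tgfb1 made up 61.0% ± 15.7 and 57.2% ± 15.2 (SD, n = 7 and 8), with 12.2% ± 4.33 and 16.1% ± 6.52 from Tgfb2. In the whole stump Tgfb3 was the major isoform, at 57.9% ± 15.9 and 59.0% ± 8.80 (SD, n = 9 and 7). The delayed and immediate shares overlapped in every fraction.

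Among the receptors, the ligand-binding and signaling chains were higher in MAC. Tgfbr1, the kinase that phosphorylates the Smads (chr4:47353222-47414931), ran from 103 to 294 CPM in MAC at day 5 and from 36.7 to 144 CPM in the SC fraction. It was lower in the SC fraction in 16 of 16 mice at day 5 (log2 difference -1.82, SE 0.16, adjusted p = 1.4e-08) and in 15 of 15 at day 14 (-2.53, SE 0.16, adjusted p = 2.6e-10). Tgfbr2, which binds the ligand (chr9:116084293-116175360), differed less, with medians of 70.3 and 69.5 CPM at day 5. Its differences were -0.51 at day 5 (SE 0.19, adjusted p = 0.028) and -0.74 at day 14 (SE 0.15, adjusted p = 3.0e-04), and 11 of 16 and 10 of 15 mice had more of it in MAC. The day 5 call for Tgfbr2 was lost without the mouse block (-0.39, adjusted p = 0.13), under library-size scaling (-0.26, adjusted p = 0.27), and without immediate replicate 2, 3 or 8 (-0.47 to -0.44, adjusted p 0.055 to 0.070). Library-size scaling also ended the day 14 call (-0.37, adjusted p = 0.060).

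Acvr1, a receptor kinase that serves bone morphogenetic proteins and can bind activin (chr2:58388644-58567157), was low in MAC, at 1.61 to 12.1 CPM at day 5 and 3.85 to 7.58 CPM at day 14. At day 14 the SC fraction held 6.57 to 35.7 CPM, with a median of 16.0, and was higher in 15 of 15 mice (log2 difference 1.26, SE 0.17, adjusted p = 3.1e-06). At day 5, where it was chosen, the SC fraction held 2.61 to 29.6 CPM.

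The inhibitors split as well. Smad7, the inhibitory Smad that blocks the receptor complex, ran from 2.02 to 11.6 CPM in MAC and from 7.68 to 51.6 CPM in the SC fraction at day 5. It was higher in the SC fraction in 15 of 16 mice at day 5 (log2 difference 1.83, SE 0.27, adjusted p = 9.2e-06) and in 14 of 15 at day 14 (1.52, SE 0.26, adjusted p = 5.5e-05). Ski, a nuclear corepressor of the Smads (chr4:155154075-155222592), went the other way at day 5, with 8.76 to 24.2 CPM in MAC and 0.09 to 14.1 CPM in the SC fraction. Since 5 SC fraction libraries met the filter, against 16 of MAC, the log2 difference of -2.70 is a description. At day 14 its difference was -0.82 (SE 0.21, adjusted p = 0.0025), which library-size scaling left at -0.44 with an adjusted p of 0.086.

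Pmepa1, a membrane protein that TGFβ induces and that withholds receptor Smads from the receptor (chr2:173224458-173276533), had no overlap between the fractions at day 14. It ran from 10.6 to 41.0 CPM in MAC and from 61.7 to 266 CPM in the SC fraction, and the log2 difference was 2.21 (SE 0.15, adjusted p = 3.6e-10). At day 5 it ran from 2.47 to 33.6 CPM in MAC and from 6.43 to 120 CPM in the SC fraction, given as a description.

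**Figure D3:**
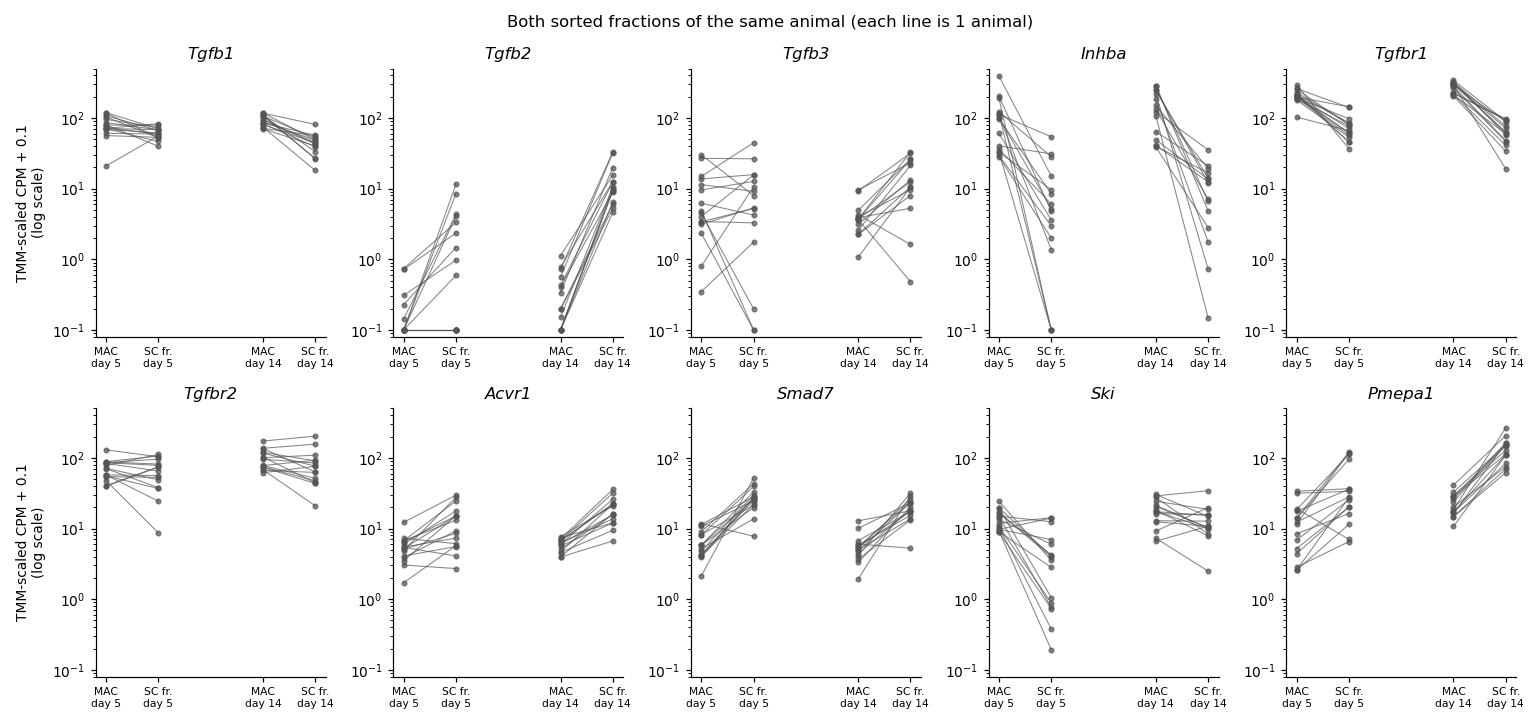
TMM-scaled CPM plus 0.1 on a log axis in both sorted fractions of each mouse, where a line joins the libraries of 1 animal (16 at day 5, 15 at day 14). Inhba and Tgfbr1 were lower and, at day 14, Tgfb2, Acvr1 and Pmepa1 were higher in the SC fraction of every mouse.

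The time after repair was compared next, over both repair groups. In MAC, 25.4% of 8949 genes differed between day 14 and day 5 (12.5% higher and 12.9% lower at day 14). Among genes that met the filter at each day, 11.7% of 8273 rose and 13.3% fell, and of 8 such genes here 3 rose and none fell. Over both repairs Pmepa1 rose from a median of 11.5 CPM (2.47 to 33.6) to 20.1 CPM (10.6 to 41.0), by a log2 fold change of 0.97 (SE 0.25, adjusted p = 0.0038). By repair group its median went from 5.11 to 27.7 CPM after delay and from 15.6 to 16.9 CPM after immediate repair. The means after immediate repair were 18.6 and 19.2 CPM. As a description, most of the pooled rise lay in the delayed libraries. The difference between these courses did not pass when fitted as an interaction (adjusted p = 0.50). Tgfbr1 rose from a median of 205 to 290 CPM (0.40, SE 0.10, adjusted p = 0.0031), and Tgfbr2 from 70.3 to 95.6 CPM (0.52, SE 0.16, adjusted p = 0.017). Their medians were higher at day 14 in each repair group, at 208 and 304 CPM after delay and 196 and 272 CPM after immediate repair for Tgfbr1, and at 70.3 and 100.3 CPM and 64.1 and 86.8 CPM for Tgfbr2. The ranges of all 3 overlapped between the days. The Tgfbr2 call was lost with limma-voom (0.35, adjusted p = 0.068).

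Marker sums of other cell types also moved with the day in MAC. The dendritic cell markers summed to 1187 to 4630 CPM at day 5 and 6505 to 17008 CPM at day 14, with no overlap. T cell markers summed to 0.85 to 6.57 and 5.15 to 63.9 CPM, and fibroblast markers to 2.49 to 369 and 22.7 to 1126 CPM. In every MAC group 4 of the 8 dendritic markers had a median of at least 5 CPM, against all 8 in the SC fraction. For T cells it was 0 of 5 markers at day 5 and 1 of 5 at day 14. For fibroblasts it was 1 of 7 and 4 of 7, and for SC 1 of 9 at both days. Over the 32 MAC libraries Tgfbr2 followed the dendritic sum with a Spearman correlation of 0.56, the fibroblast sum with 0.55 and the SC sum with 0.53, while Tgfbr1 and Pmepa1 followed the dendritic sum with 0.43 and 0.40. The libraries share days and groups, and the part of other cells in these 3 rises was not tested.

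Tgfb3 in MAC had medians of 4.77 CPM at day 5 (0.25 to 30.1) and 3.59 CPM at day 14 (0.97 to 9.45). It met the filter in 8 libraries of day 5 and 3 of day 14, so the log2 difference of -1.21 is a description, and it was -0.70 with sex as a covariate and -0.54 with limma-voom. The genes that did not pass were Tgfb1 (0.26, SE 0.13), Inhba (0.50, SE 0.35), Acvr1 (0.18, SE 0.18), Smad7 (-0.20, SE 0.22) and Ski (0.33, SE 0.17), with adjusted p from 0.13 to 0.55.

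Over the SC libraries, 19.3% of 10923 genes differed between the days (8.3% higher and 11.0% lower at day 14), and among genes that met the filter at each day 8.24% of 9395 rose and 12.5% fell. Of the 6 such genes open to test none rose and 1 fell. Tgfb2 and Ski met the filter mainly at day 14, in 14 libraries each against 2 and 5 at day 5, and are described only. Tgfb2 had medians of 0.68 CPM at day 5 (0 to 11.4) and 10.2 CPM at day 14 (4.50 to 33.2). Ski had medians of 3.66 CPM (0.09 to 14.1) and 10.7 CPM (2.40 to 34.2). Tgfb1 fell from a median of 60.2 CPM (39.7 to 82.5) to 44.3 CPM (18.0 to 80.9), by -0.48 (SE 0.15, adjusted p = 0.026), a call that library-size scaling ended (-0.29, adjusted p = 0.18). In this comparison library-size scaling moved the median of all genes from 0.09 to 0.26.

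The other genes open to test in the SC fraction did not pass. Tgfb3 differed by 0.62 (SE 0.67), Tgfbr1 by -0.25 (SE 0.21), Tgfbr2 by 0.30 (SE 0.29) and Smad7 by -0.47 (SE 0.22). Over the alternative fits Tgfb3 ran from 0.59 to 1.38 and Tgfbr1 from -0.30 to -0.034. Tgfbr2 ran from 0.077 to 0.48 and Smad7 from -0.52 to -0.30. Of these fits only limma-voom put Smad7 past the threshold (-0.52, adjusted p = 0.027). Inhba had medians of 4.90 CPM at day 5 and 12.0 CPM at day 14, with ranges of 0 to 54.1 and 0.05 to 35.2. As a description, Pmepa1 had medians of 27.6 CPM at day 5 and 128 CPM at day 14, from 20.1 to 128 CPM after delay and from 95.2 to 130 CPM after immediate repair. Acvr1 had medians of 11.1 and 16.0 CPM over both repairs, but its courses went opposite ways, from 6.004 to 20.8 CPM after delay and from 17.6 to 14.9 CPM after immediate repair. Markers moved with the day too. The SC marker sum had medians of 260 and 631 CPM in the delayed and immediate libraries at day 5 and of 1743 and 746 CPM at day 14, and 7 fibroblast markers had medians of 585 and 1795 CPM at day 5 and 4507 and 6509 CPM at day 14. Over all 31 SC fraction libraries, Ski followed the SC marker sum with a Spearman correlation of 0.82 and the fibroblast sum with 0.81, and Tgfb2 followed them with 0.52 and 0.67. Pmepa1 followed the same sums with 0.88 and 0.77, Acvr1 with 0.56 and 0.41, and Tgfb1 with -0.46 and -0.215. The libraries share days and groups, so these are descriptions. The part of cell makeup in the day differences of these genes was not tested.

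The effect of delay was then compared within each fraction and day. In the SC fraction at day 5, where Pmepa1 and Acvr1 were chosen, the 9 delayed libraries held 6.43 to 27.8 CPM of Pmepa1 with a median of 20.1. The 7 immediate libraries held 33.6 to 120 CPM with a median of 95.2, so the groups did not overlap. The log2 difference was -2.13 (SE 0.38). Acvr1 ran from 2.61 to 15.05 CPM after delay, with a median of 6.004, and from 13.0 to 29.6 CPM after immediate repair, with a median of 17.6. Its groups overlapped by 1 delayed library, and the difference was -1.52 (SE 0.35).

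The SC marker sum moved with the same groups, at 164 to 499 CPM in the delayed and 231 to 1378 CPM in the immediate libraries. MAC markers moved the other way, at 404 to 11451 CPM after delay and 295 to 4195 CPM after immediate repair. Over the 16 day 5 libraries of both groups, Pmepa1 followed the SC marker sum with a Spearman correlation of 0.85 and the MAC marker sum with -0.56, and Acvr1 followed them with 0.41 and -0.465. These are the libraries the genes were chosen on, so the correlations are descriptions. The part of the SC share in the lower Pmepa1 and Acvr1 was not tested.

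**Figure D4:**
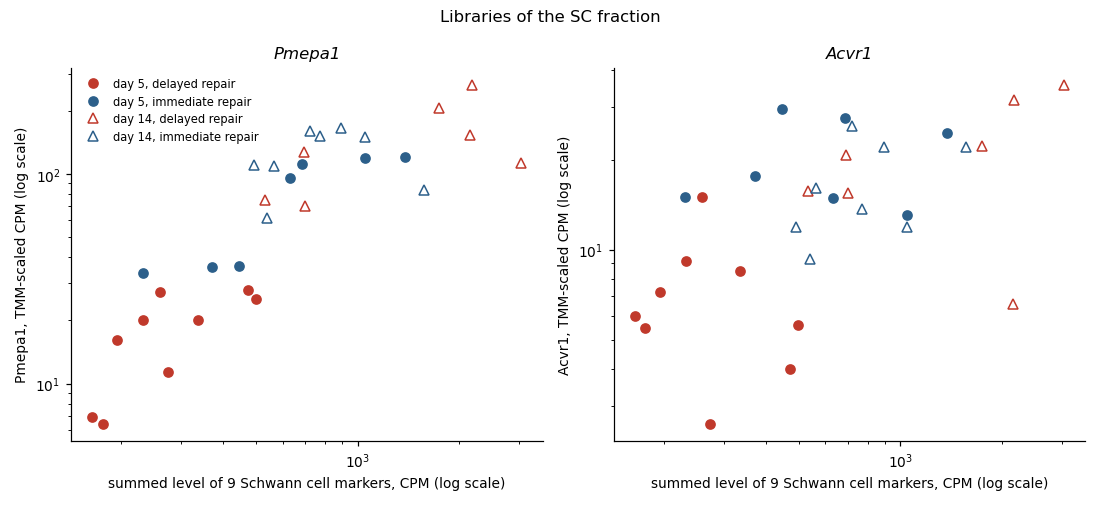
Pmepa1 and Acvr1, as TMM-scaled CPM on log axes, against the summed level of 9 SC markers in every library of the SC fraction (filled circles, day 5; open triangles, day 14; red, delayed; blue, immediate). At day 5 the delayed libraries lie at 164 to 499 CPM of SC markers and at 6.43 to 27.8 CPM of Pmepa1.

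At this time edgeR called 0 of 9604 genes (0.0%), with 505 at an unadjusted p under 0.05, while DESeq2 called 14 and limma-voom 0. None of the 4 other genes that met the filter in each group was called, and none had an unadjusted p under 0.05. Tgfb1 had medians of 59.1 CPM after delay and 66.7 CPM after immediate repair, Smad7 of 25.9 and 26.9 CPM, Tgfbr1 of 70.8 and 61.0 CPM, and Tgfbr2 of 65.1 and 73.9 CPM. Inhba reached 54.1 CPM in the delayed and 14.96 CPM in the immediate libraries, with medians of 3.49 and 5.10 CPM, and Tgfb3 had medians of 5.25 and 7.88 CPM. Inhba and Tgfb3 met the filter in neither group alone, and Tgfb2 (0.49 and 0.87 CPM) and Ski (3.88 and 3.44 CPM) did not enter the test. The ranges of all these genes overlapped.

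The day 14 SC fraction was not used in the choice and gives a separate reading of the same genes. Pmepa1 held 69.9 to 266 CPM after delay, with a median of 128, and 61.7 to 164 CPM after immediate repair, with a median of 130 (log2 difference 0.20, SE 0.28, adjusted p = 0.998). Acvr1 held 6.57 to 35.7 and 9.34 to 25.9 CPM, with medians of 20.8 and 14.9 (0.33, SE 0.33). The Acvr1 difference ran from 0.13 to 0.38 over the alternative fits and from 0.16 to 0.49 with a library left out. The sign for Pmepa1 turned with limma-voom, to -0.13. Inhba held 0.05 to 21.0 CPM after delay and 6.98 to 35.2 CPM after immediate repair, with 6 of 7 delayed libraries below every immediate one. It met the filter in 3 delayed and 8 immediate libraries, so the log2 difference of -1.64 is a description. It was -2.85 with limma-voom and -2.59 without delayed replicate 8. The other 7 had unadjusted p above 0.05, with log2 differences of 0.21 for Tgfb1 (SE 0.25), -0.44 for Tgfb2 (SE 0.45), 0.049 for Tgfb3 (SE 0.65), 0.037 for Tgfbr1 (SE 0.29), 0.27 for Tgfbr2 (SE 0.38), 0.38 for Smad7 (SE 0.29) and 0.56 for Ski (SE 0.39). edgeR called 0 of 10226 genes (0.0%), with 373 at an unadjusted p under 0.05, DESeq2 called 3 and limma-voom 0.

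The difference between the days was itself fitted. For the SC fraction edgeR called 0 of 10923 genes (0.0%), with 545 at an unadjusted p under 0.05, 9 by DESeq2 and 0 by limma-voom, and 0 of the 8 genes open to test had an unadjusted p under 0.05. The fitted difference in the delay effect, day 14 minus day 5, was 2.35 for Pmepa1 (SE 0.49) and 1.87 for Acvr1 (SE 0.47), given as a description.

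In MAC at day 5, edgeR called 0.0357% of 8409 genes, which was 3 genes and none of the 5 here that met the filter in each group. Pmepa1 held 2.47 to 19.0 CPM in the delayed libraries, with a median of 5.11, and 9.06 to 33.6 CPM in the immediate ones, with a median of 15.6, and 7 of 9 delayed libraries lay below every immediate one. It met the filter in 4 delayed and 8 immediate libraries, so the log2 difference of -1.40 is a description. MAC markers summed to 16362 to 28947 CPM in the delayed and 23853 to 32909 CPM in the immediate libraries, and over all 32 MAC libraries Pmepa1 followed that sum with a Spearman correlation of 0.425. Endothelial markers summed to 34.2 to 68.1 and 23.0 to 60.8 CPM, and SC markers to at most 28.5 CPM in either group. Of these lists, 2 of 6 endothelial and 1 of 9 SC markers had a median of at least 5 CPM in each group. The part of these markers in the Pmepa1 difference was not tested. Tgfb1 had medians of 70.5 and 90.6 CPM (-0.45, SE 0.21, unadjusted p = 0.046, adjusted p = 0.93). Inhba (60.2 and 104 CPM), Tgfbr1 (208 and 196 CPM), Tgfbr2 (70.3 and 64.1 CPM) and Ski (13.4 and 13.3 CPM) had unadjusted p above 0.05. Acvr1, Smad7 and Tgfb3 did not meet the filter in each group and had medians of 3.99 and 6.15, 4.64 and 6.86, and 6.12 and 3.61 CPM.

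In MAC at day 14 edgeR called 0 of 8589 genes (0.0%), with 189 at an unadjusted p under 0.05, and DESeq2 and limma-voom called 0. Ski held 12.8 to 30.3 CPM after delay, with a median of 24.2, and 6.50 to 20.4 CPM after immediate repair, with a median of 14.3, and 5 of 7 delayed libraries lay above every immediate one (0.79, SE 0.25, unadjusted p = 0.0065, adjusted p = 0.9999). Tgfb1 had medians of 108 and 83.8 CPM (0.29, SE 0.12, unadjusted p = 0.021, adjusted p = 0.9999). Pmepa1 had medians of 27.7 and 16.9 CPM (0.45, SE 0.23, unadjusted p = 0.066, adjusted p = 0.9999). The other 5 tested differed by 0.39 for Inhba (SE 0.46), 0.14 for Tgfbr1 (SE 0.13), 0.037 for Tgfbr2 (SE 0.22), 0.13 for Acvr1 and 0.43 for Smad7, of which the last 2 did not meet the filter in each group. Tgfb3, with medians of 3.64 and 3.57 CPM, and Tgfb2 did not meet the filter.

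Tested as a difference between the days, the delay effect in MAC passed for 0.0223% of 8949 genes and for none of the 9. Pmepa1 had the smallest p among them, with an effect 1.85 log2 units higher at day 14 than at day 5 (SE 0.49, unadjusted p = 6.4e-04, adjusted p = 0.50). Only limma-voom put it past the threshold, at 2.19 with an adjusted p of 0.048. Tgfb1 (0.74, SE 0.26, unadjusted p = 0.0067) and Ski (0.92, SE 0.35, unadjusted p = 0.012) had adjusted p of 0.9999.

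The whole distal stump differed most with delay. There 26.2% of 12229 genes passed the test (12.7% higher and 13.5% lower after delay), and among genes that met the filter in each group 12.6% of 11185 were higher and 13.1% lower. Of the 9 such genes here 2 were higher and none lower. Tgfb2 held 13.3 to 35.5 CPM after delay, with a median of 19.96, and 8.59 to 19.6 CPM after immediate repair, with a median of 15.9. It was higher after delay by 0.66 (SE 0.21, adjusted p = 0.031), and 6 of 9 delayed libraries lay above every immediate one. The call was lost with no filter on low counts (0.62, adjusted p = 0.055). It was also lost without delayed replicate 4, 8 or 9 or immediate replicate 2, 4 or 6 (0.55 to 0.62, adjusted p 0.052 to 0.078).

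Smad7 held 25.1 to 40.8 CPM after delay, with a median of 32.9, and 20.3 to 31.9 CPM after immediate repair, with a median of 24.6. It was higher after delay by 0.37 (SE 0.11, adjusted p = 0.023), again with 6 of 9 delayed libraries above every immediate one. The call was lost with no filter (0.33, adjusted p = 0.051), and without delayed replicate 3 or 4 or immediate replicate 2, 7 or 8 (0.31 to 0.34, adjusted p 0.055 to 0.066). Immediate replicates 4 and 8 had the highest MAC marker sums of their group (5718 and 4700 CPM), within the delayed range, and without both of them the Smad7 difference was 0.28 (adjusted p = 0.11).

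The other genes did not pass in the stump. Tgfbr1 had medians of 155 and 133 CPM after delayed and immediate repair (0.38, SE 0.16, adjusted p = 0.085), Tgfb1 of 61.2 and 49.6 CPM (0.33, SE 0.17, adjusted p = 0.16) and Tgfbr2 of 430 and 420 CPM (0.21, SE 0.10, adjusted p = 0.15). Tgfb3 reached 221 CPM after delay and 92.2 CPM after immediate repair (0.61, SE 0.36, adjusted p = 0.23), and Inhba 24.1 and 10.4 CPM (0.55, a description, with the filter met in 8 delayed and 5 immediate libraries). The Tgfb3 value was 0.37 with sex as a covariate, 0.21 with limma-voom, 0.025 with the replicate block and 0.34 without delayed replicate 5. The Inhba value was 0.24 with limma-voom and 0.23 without delayed replicate 1. Ski ran from 169 to 245 CPM across the stump libraries and differed by 0.08 (SE 0.08, adjusted p = 0.53).

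Pmepa1 and Acvr1 were not lower past the threshold in the stump. Pmepa1 held 80.9 to 192 CPM after delay and 92.0 to 215 CPM after immediate repair (-0.27, SE 0.19, adjusted p = 0.31). Acvr1 held 39.9 to 52.4 and 30.6 to 60.2 CPM (-0.03, SE 0.14, adjusted p = 0.89), and the sign of the Acvr1 difference turned with limma-voom, to 0.039. Without immediate replicates 4 and 8 the differences were -0.47 for Pmepa1 (adjusted p = 0.076) and -0.23 for Acvr1 (adjusted p = 0.093), and the Pmepa1 difference was -0.15 without immediate replicate 3.

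Markers of several cell types moved with delay in the stump. SC markers summed to 128 to 861 CPM after delay and 1463 to 3383 CPM after immediate repair, MAC markers to 3412 to 5882 and 1415 to 5718 CPM, endothelial markers to 898 to 1264 and 582 to 811 CPM, and mural markers to 787 to 1289 and 607 to 815 CPM. Dendritic cell markers summed to 711 to 1351 and 436 to 1052 CPM. In a whole tissue, fewer cells of a type and less RNA per cell cannot be told apart. Over the 16 libraries Tgfb2 followed the SC marker sum with a Spearman correlation of -0.62 and Smad7 with -0.51, across libraries that share these groups, and the part of cell makeup in either difference was not tested.

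**Figure D5:**
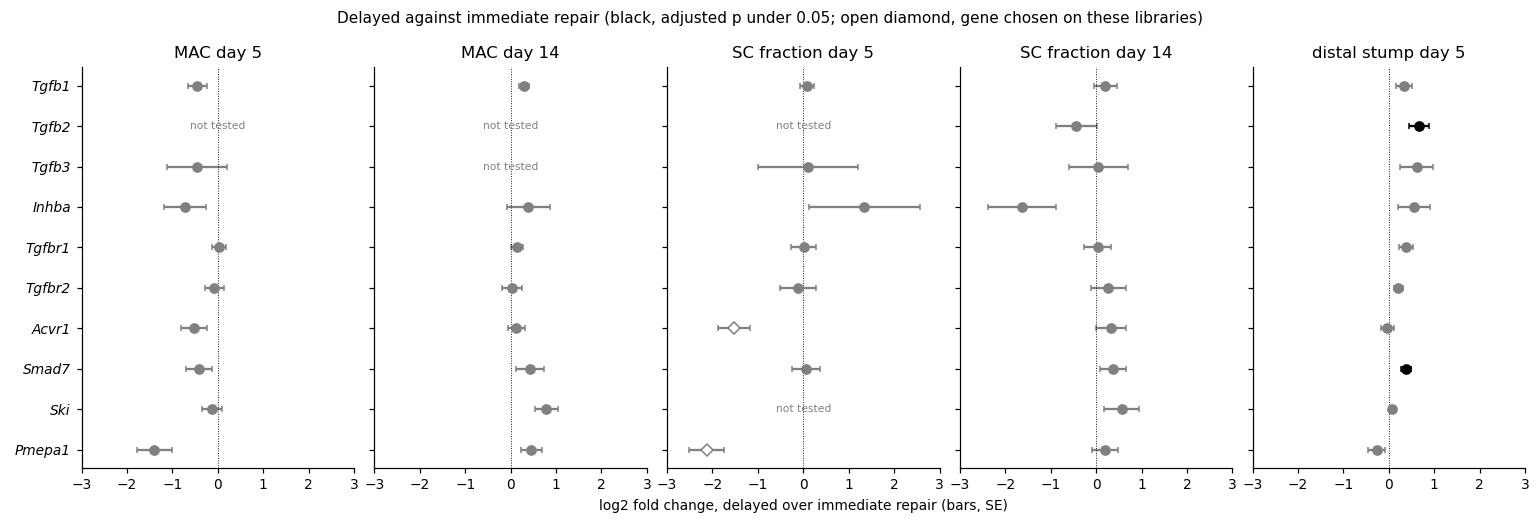
Log2 fold change of delayed over immediate repair with its SE for each gene in the 5 fraction and day comparisons (black, adjusted p under 0.05; grey, not past it; open diamonds, genes chosen on those libraries). The black points are Tgfb2 at 0.66 and Smad7 at 0.37 in the stump.

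The wider pathway was read from a list of 61 other genes in the tables: further ligands, latency and activation proteins, antagonists, receptors, Smads, inhibitors and known targets. Col1a1, Col3a1, Dcn and Acta2 also stand in the fibroblast and mural marker lists. In the stump 11 of the 52 that met the filter in each group were higher and 6 lower after delay, where 12.6% and 13.1% of all such genes were, with a median log2 difference of 0.15 against 0.01. The smallest p among the rises belonged to the receptor Acvrl1 (0.59, SE 0.11, adjusted p = 8.7e-04), the corepressor Skil (0.53, SE 0.11, adjusted p = 0.0020) and the contractile protein gene Acta2 (0.65, SE 0.14, adjusted p = 0.0031), which is also a mural marker. Among the falls were Itgb8, an integrin chain that frees latent TGFβ (-2.95, SE 0.35, adjusted p = 1.7e-05), the ubiquitin ligase Nedd4l (-1.40, SE 0.17, adjusted p = 2.2e-05) and the ligand Gdf11 (-0.87, SE 0.15, adjusted p = 6.8e-04). Itgb8 ran from 26.3 to 904 CPM over the stump libraries.

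Between the days in MAC, 2 of the 33 pathway genes that met the filter at each day rose and 9 fell, where 11.7% and 13.3% of all such genes did, and their median difference was -0.11. Ltbp3 (1.53, SE 0.22) and Lrrc32 (1.79, SE 0.41), which hold latent TGFβ outside the cell and at the cell surface, rose, with adjusted p of 3.9e-06 and 0.0014. Falls with the smallest p were the cell cycle inhibitor Cdkn1a (-0.59, SE 0.09), the corepressor Tgif1 (-0.49, SE 0.08) and Thbs1, a secreted activator of TGFβ (-0.92, SE 0.18). Of 10 targets tested, 6 were among the falls. In the SC fraction 4 of 40 rose and 7 fell, near the 8.24% and 12.5% of all genes that met the filter at each day. Col1a1 (2.39, SE 0.59), Ltbp3 (1.61, SE 0.40) and Ltbp4 (2.72, SE 0.68) rose, and the coreceptor Eng (-1.52, SE 0.23), Tgif1 (-0.78, SE 0.13) and the ubiquitin ligase Smurf1 (-1.10, SE 0.18) fell. Col1a1 is itself among the fibroblast markers that were higher at day 14.

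Between the fractions at day 5, 12 of the 33 pathway genes that met the filter in each were higher and 9 lower in the SC fraction, where 27.3% and 36.4% of all such genes were. Ltbp4, which anchors latent TGFβ in the matrix, was at 0 in 16 of 17 MAC libraries and at 0.07 to 151 CPM in the SC fraction. The cell cycle inhibitor Cdkn2b reached at most 1.91 CPM in MAC and held 23.1 to 177 CPM in the SC fraction, and the corepressor Tgif2 reached 1.72 CPM and held 2.06 to 23.2 CPM. None of these 3 met the filter in MAC. Of the genes that met it in both, the activin receptor Acvr2a (1.20, SE 0.11), Smurf1 (1.95, SE 0.18) and Smad1 (0.86, SE 0.10) were higher, while the protease Furin (-1.48, SE 0.19), Thbs1 (-4.55, SE 0.62) and the early target Klf10 (-0.96, SE 0.13) were lower. At day 14, 11 of 34 were higher and 10 lower, where 26.1% and 34.2% of all such genes were. The activin antagonist Fstl3, which did not meet the filter in MAC, was at 0 in 11 of 15 MAC libraries and at 1.75 to 17.8 CPM in the SC fraction. The collagens Col3a1 (5.20, SE 0.34) and Col1a1 (6.42, SE 0.44), both fibroblast markers, were among the higher, and Gdf15 (-4.96, SE 0.35), Thbs1 (-4.34, SE 0.60) and fibronectin Fn1 (-2.56, SE 0.36) among the lower. For delay within MAC and within the SC fraction, edgeR called 0 of the 30 to 39 pathway genes that met the filter in each group, with 3 and 1 at an unadjusted p under 0.05 in MAC at days 5 and 14 and 2 at each day in the SC fraction. In the day 5 SC fraction 29 of 35 such differences (82.9%) lay below 0, where 53.7% of all such genes did. These 35 genes had a median of -0.19 after delay, against -0.02 over all such genes, in libraries whose SC marker sum was also lower. The same medians were -0.051 against 0.0073 in MAC at day 5, 0.069 against 0.0023 in MAC at day 14 and 0.036 against -0.010 in the SC fraction at day 14.

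The genes whose levels followed each member most closely were ranked by Spearman correlation over the 32 MAC libraries, which share days and groups. Inhba had the strongest, with Srp68 (0.88), Chst11 (0.87) and Arl8b (0.86), followed by Tgfbr2 with Man1c1 (0.84), Prkacb (0.83) and Itgb5 (0.83). Pmepa1 was nearest to Mta1 (0.74), Usp7 (0.73) and Csnk2a2 (0.73), and Tgfb1 to Usp7 (0.75) and Zc3h12a (0.74), so Usp7 stood in both lists. Tgfb3 was nearest to Npl (0.74), Appl2 (0.73) and Nt5c2 (0.72), Tgfbr1 to Cyp4v3 (0.76), Slc44a1 (0.74) and Myo10 (0.73), and Acvr1 to Mex3d (0.72), Rab21 (0.71) and Patl1 (0.71). Smad7 followed Pln (0.65) and Traf3 (0.64), and Ski followed Hnrnpa0 (0.73), Drap1 (0.62) and Ebag9 (0.55). Among the members themselves, Pmepa1 followed Tgfb1 with 0.72, Acvr1 with 0.64 and Tgfbr1 with 0.53, and Inhba ran against Tgfb3 with -0.52.

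Over the 16 stump libraries Tgfbr2 was nearest to Igsf10 (0.96), Rin2 (0.96) and Zfp110 (0.92), Tgfb3 to Cilp (0.95), Capn6 (0.93) and C1qtnf3 (0.93), and Tgfb1 to Mast3 (0.93), Zfp385a (0.92) and Hivep1 (0.92). Tgfb2 was nearest to Slco5a1 (0.87), Slc1a4 (0.85) and Mreg (0.84), and Smad7 to Fars2 (0.93), Btaf1 (0.89) and Arid5b (0.89). Acvr1 followed Klf5 (0.95), Ctdspl (0.91) and Piezo2 (0.91), Pmepa1 followed Reck (0.92), Eda (0.89) and Jup (0.89), and the pair followed each other with 0.77. Inhba followed Kdm1a (0.82), Styx (0.82) and Gcnt4 (0.80), Tgfbr1 followed Cdh11 (0.85), Hipk3 (0.85) and Utp23 (0.84), and these members followed each other with 0.79. Ski followed Tcf7l1 (0.90), Zfp395 (0.89) and Tgfbrap1 (0.86). These are descriptions over few libraries of 2 groups.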

How the data were processed

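Bulk RNA-seq libraries of sorted MAC (32), the sorted SC fraction (31) and whole distal stump (16) were analysed. The authors amplified cDNA of sorted cells, depleted rRNA in the stump, trimmed reads with cutadapt 1.8 and aligned them with TopHat2 2.1.1 to mm10 with UCSC genes. The submitters' processing notes also name Cufflinks 2.2.1 and Cuffnorm. The deposited values are estimated counts per gene, not normalised by the authors, and 0.951% to 1.18% of them were not whole. The program that wrote them is not given in the sources used here. They were rounded to whole numbers.

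edgeR 4.0.16 (R 4.3.3) quasi-likelihood fits with TMM scaling were run on genes reaching 5 CPM in 6 or more libraries of the comparison, and p-values were adjusted by Benjamini-Hochberg over all genes, with a threshold of 0.05. Where groups, days or fractions were compared, genes that did not meet this filter on each side were described and left out of the members' and pathway counts, a choice made after the values were seen. Counts for the interaction hold every gene fitted. Repair groups were set against each other by fraction and day, days within each sorted fraction over both repairs, the delay effect between days as an interaction, and fractions with the mouse as a block. Bridges came from separate mice, so p-values cover the spread between mice. Amplification copies are not separate molecules, and a floor of 3 counts covers counting error only. DESeq2 1.42.0, limma-voom (limma 3.58.1), other filters and scalings, sex, a replicate block and left-out libraries, or left-out mice between fractions, were the alternatives. The procedure was tested on simulated data. No library was identical to another.

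The 10 genes were followed in every comparison, by value or by count, with up to 3 rises and 3 falls of smallest p from the pathway list and the 3 nearest genes by Spearman correlation of MAC and stump levels, of which 2 are not reported here. Members, lists and tests were chosen with earlier results of these data known. Positions and exon lengths are from GENCODE annotation of GRCm38, the build of mm10.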

Additional observations from a re-analysis of the deposited data

Results flagged for a closer look

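In 10 of 90 gene and group sets a library lay far from the rest of its group, by Dixon's test at the 95% level. For normally distributed values, chance alone marks about 1 set in 20. The CPM were not log-transformed, so this rate may not hold for them, and no cause was tested. Inhba stood out in both day 14 groups of the SC fraction, at 21.0 CPM in delayed replicate 8 (next 6.48 CPM) and at 35.2 CPM in immediate replicate 4 (next 19.2 CPM). In the delayed SC fraction of day 5, Tgfb3 reached 44.6 CPM in replicate 5 (next 15.7 CPM), Tgfbr1 144 CPM in replicate 9 (next 85.9 CPM) and Smad7 51.6 CPM in replicate 2 (next 30.1 CPM). In the delayed SC fraction of day 14, Tgfbr2 reached 202 CPM in replicate 4 (next 109 CPM) and Ski 34.2 CPM in replicate 1 (next 18.6 CPM). In immediate MAC of day 5, replicate 3 was highest for both Tgfbr1 (261 CPM, next 219 CPM) and Acvr1 (12.1 CPM, next 6.61 CPM). In the delayed stump, Pmepa1 reached 192 CPM in replicate 8 (next 124 CPM). All 10 were the highest library of their group.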

How the results depend on the processing

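Over 62 fold changes and 412 alternative fits, 390 kept their direction and their side of the threshold, 13 lost it, 4 gained it, 4 changed sign and 1, with no test, moved by more than its SE. With 1 library left out at a time, or 1 mouse between fractions, 1301 of 1335 fits were unaltered in this sense. Sign changes were limited to 2 of the 62. Pmepa1 in the SC fraction at day 14 was 0.20, but -0.13 with limma-voom, -0.014 with the replicate block and -0.0067 to 0.34 with a library left out (negative without delayed replicate 2). Acvr1 in the stump was -0.03, but 0.039 with limma-voom, 0.015 with the replicate block and above 0 without immediate replicate 3 (0.033) or 6 (0.016). Of 29 values that did not pass, 17 moved by over 1.5 times in at least 1 of these fits, as did 8 of the 25 that passed. Gains were Inhba (0.85) and Tgfb1 (0.38) between days in MAC, Smad7 (-0.52) between days in the SC fraction and Pmepa1 in the MAC interaction.

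Counts of called genes moved most where few were called. For delay in MAC at day 5, 3 genes became 17 with DESeq2, 8 with sex as a covariate, 12 with the replicate block, 11 with all 4 groups in one fit and 1 to 3 with a library left out. In the SC fraction 0 became 14, 1 and 2 at day 5 with DESeq2, sex and one fit (0 to 1 with a library left out) and 3 at day 14 with DESeq2. The interaction gave 9 in each fraction with DESeq2, and in MAC 0 with library-size scaling, 4 with limma-voom and 0 to 3 with a library left out, against 2. Replicate numbers mark different mice in the repair groups, and not every same-numbered pair correlated above 0.1 in any comparison, so the numbers were not taken as pairs. In the stump, where 3205 genes were called, the replicate block gave 2184. Without both stump libraries set apart, a choice made after seeing the data, 3508 were called, and Pmepa1 (-0.47) and Acvr1 (-0.23) lay further below 0. Library-size scaling moved the median of all genes by 0.12 between days in MAC, 0.17 in the SC fraction, 0.25 and 0.37 between fractions at days 5 and 14 and -0.11 in the MAC interaction. The cause of these changes was not tested. Depth limits Tgfb2 in MAC, where most values lie at or under the floor of 3 counts.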

Other observations

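Sex was set aside in the comparisons and is given here as a description, chosen after the values were seen and with no test. In MAC at day 5, over both repair groups, Inhba held 101 to 391 CPM in the 8 males, with a median of 119, and 28.2 to 107 CPM in the 9 females, with a median of 36.2. Tgfb3 went the other way, with 0.25 to 4.77 CPM and a median of 3.17 in males, and 3.30 to 30.1 CPM and a median of 13.6 in females. Tgfbr2 had medians of 54.8 CPM in males and 85.2 CPM in females. Markers moved with sex in the same libraries. SC markers summed to 1.99 to 17.2 CPM in males and 12.3 to 28.5 CPM in females, and MAC markers to 25862 to 32909 and 16362 to 29879 CPM. Only 1 of the 9 SC markers had a median of at least 5 CPM in either day 5 MAC group. Over all 32 MAC libraries Inhba followed the SC sum with a Spearman correlation of -0.72 and the MAC sum with 0.43, and Tgfb3 followed them with 0.42 and -0.49. The part of these markers was not tested. At day 14 the medians of the sexes were closer, at 137 and 133 CPM for Inhba, 3.60 and 3.59 CPM for Tgfb3 and 97.2 and 95.6 CPM for Tgfbr2. In the SC fraction at day 5, Tgfb3 had medians of 2.41 CPM in 8 males and 10.8 CPM in 8 females, and Tgfbr2 of 43.3 and 88.7 CPM. In the stump at day 5, Tgfb3 had medians of 52.2 and 80.4 CPM and Tgfbr2 of 401 and 441 CPM. The fractions came from many of the same mice and are not independent of each other.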
